A study of Homo sapiens with 8 samples.

Results

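The interleukin-1 family genes followed here are 8 genes taken by symbol from a table of 19583 gene rows. They are the ligand genes IL1A, IL1B, IL18 and IL33, the antagonist gene IL1RN, the receptor genes IL1R1 and IL1RAP, and CASP1, whose protease cuts the IL1B and IL18 precursors. All 8 symbols were found, and 6 of the genes had a mean of at least 1 normalised read count over the libraries and were tested. IL1RN and IL33 were below that level. The genes were picked with the difference between the hairpin labels already known, so their differences between labels are given below as values without a test.

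The libraries came from MDA-MB-231, an established human breast cancer line of the triple-negative class, grown in DMEM with serum. Cells labelled shSC (a short hairpin RNA used as the control) or shCHD4 (a hairpin named for CHD4, a nucleosome-remodelling ATPase of the NuRD complex) were held at 20% or 1% O2 for 24 hours. Each of the 4 combinations had 2 libraries of polyadenylated RNA, 8 in all, and the labels do not say that replicates came from separate cultures. If they did not, the p-values cover technical spread alone. No source used here says whether the hairpin cells were a pool or 1 clone, or how many hairpin sequences stood behind the shCHD4 label.

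Interleukin-1 alpha and interleukin-1 beta bind the same receptor, IL1R1, which signals only once the accessory chain IL1RAP joins it. The paired intracellular domains gather MYD88 and the IRAK kinases, and the pathway ends in NF-kB and MAP kinases, which switch on cytokines, chemokines and adhesion molecules, among them the interleukin-1 genes themselves. IL1RN encodes the natural receptor antagonist, IL18 and IL33 signal through related receptors, and inflammasomes activate CASP1, which matures interleukin-1 beta and interleukin-18 but not interleukin-1 alpha. Breast cancer cells of the basal and mesenchymal kind are known to make interleukin-1 and the chemokines downstream of it.

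The libraries held 24947627 to 31903585 gene-assigned reads, and a normalised read count is a gene's reads divided by a single factor for its library. CHD4 itself was at 298.6 ± 0.470 normalised counts (SD, n = 2) in shSC at 20% O2 and 299.0 ± 7.90 in the libraries labelled shCHD4, a log2 difference of 0.0018 (adjusted p = 0.968, limma). At 1% O2 the means were 278.9 ± 1.08 and 293.0 ± 8.64, with an adjusted p of 0.129. The mean CHD4 level was thus no lower in the libraries labelled shCHD4, and every difference below is between libraries so labelled. The labels differed widely, with 75.6% of 12645 tested genes past an adjusted p of 0.05 at 20% O2 and 77.4% at 1% O2. Of markers known for this mesenchymal, receptor-negative line, VIM stood between 3471 and 6856 normalised counts, and the means of ESR1, PGR and CDH1 were under 1. The epithelial genes KRT8, KRT18 and EPCAM were at 121.4, 239.2 and 6.95 in shSC at 20% O2 and CD44 at 1270. Under the shCHD4 label at 20% O2 CD44 (−0.79) and EPCAM (−0.58) were lower, KRT8 (0.97) and VIM (0.66) were higher and KRT18 did not pass (0.080, adjusted p = 0.167). Of 9 myeloid markers found in the table, 6 or 7 had means under 1 in each group, PTPRC did not exceed 0.636 in any library and CD68 supplied most of the summed level. That sum was 113.5 to 125.6 in the shSC libraries and 122.0 to 126.6 in those labelled shCHD4. Of 4 keratinocyte markers found, KRT10 supplied most of a sum of 30.1 to 36.5, while TP63 was at 2.32 to 4.23 in the shSC libraries and 0.177 to 0.343 in the others; the part of these cells in the results was not tested.

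IL1B, the gene of interleukin-1 beta, was at 275.1 and 276.8 normalised counts in the 2 libraries of shSC at 20% O2 and at 492.0 and 477.2 in those of shSC at 1% O2. In the libraries labelled shCHD4 it was at 1.87 and 1.31 at 20% O2 and at 1.75 and 2.02 at 1% O2. All 4 shSC libraries therefore lay far above all 4 others, and within shSC the 1% O2 libraries lay above the 20% O2 libraries. The ratio of the group means was 173-fold at 20% O2 and 257-fold at 1% O2, lower under the shCHD4 label. These low levels still rested on 88 and 108 reads summed over the 2 libraries of each O2 level, against 14103 and 27964 under shSC. In bulk RNA, fewer cells that make a transcript and less transcript in each cell cannot be told apart.

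IL1A, the gene of interleukin-1 alpha, which acts without cleavage by caspase-1, had its groups in the same order. It was at 166.7 and 171.4 normalised counts in shSC at 20% O2 and at 307.3 and 257.1 in shSC at 1% O2. Libraries labelled shCHD4 had it at 1.57 and 1.03 at 20% O2 and at 1.61 and 1.34 at 1% O2. The 2 labels did not overlap, and the ratios of means were 130-fold at 20% O2 and 191-fold at 1% O2, lower under the shCHD4 label.

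**Figure D1:**
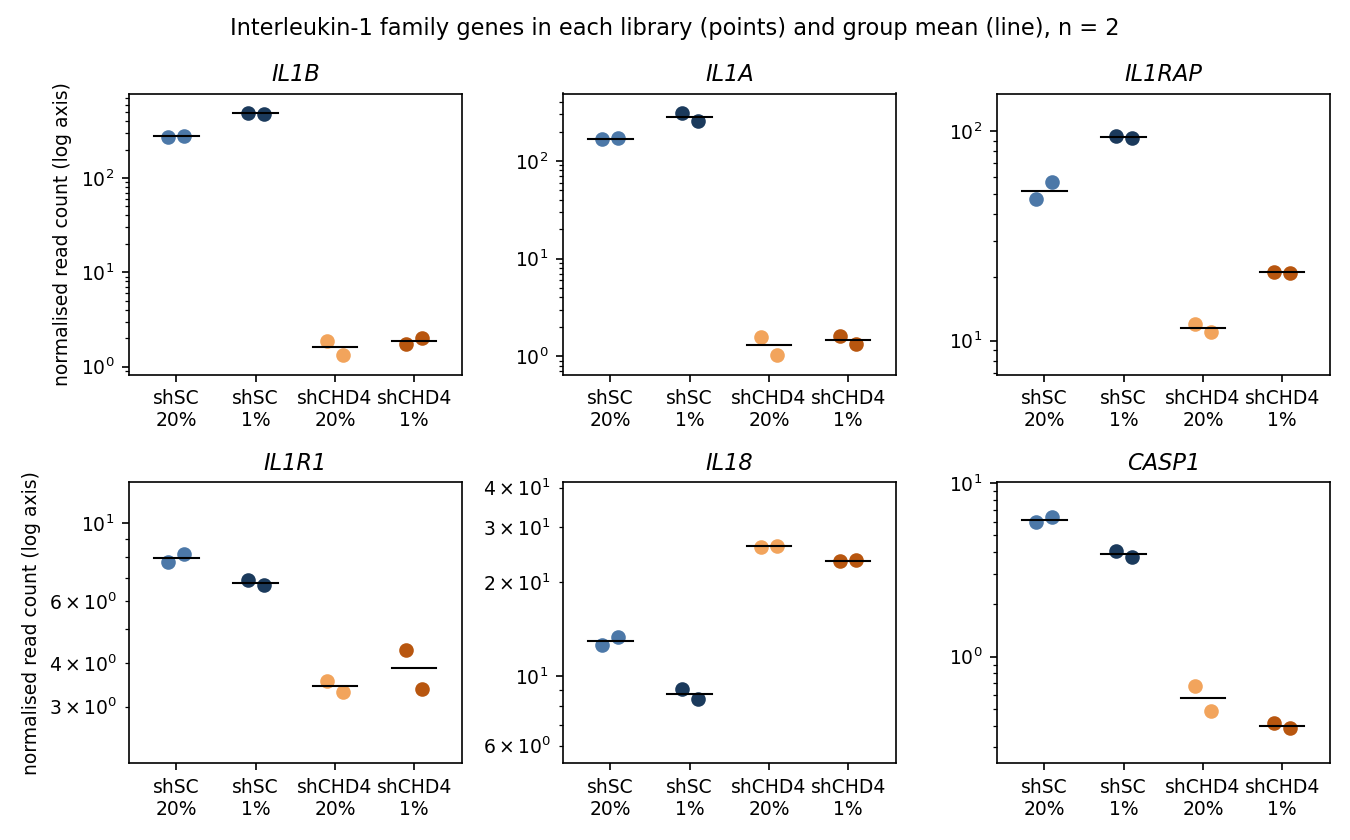
Normalised read counts (log axes) of the 6 tested interleukin-1 family genes in each library, with 2 points a group and a line at the group mean. IL1B, IL1A, IL1RAP, IL1R1 and CASP1 sit lower in the libraries labelled shCHD4 than in the shSC libraries of the same O2 level, and IL18 sits higher.

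The oxygen difference of IL1A and IL1B was tested under each label. With shSC, IL1B rose 1.76-fold from 20% to 1% O2 (log2 difference 0.81, 95% interval 0.61 to 1.01, adjusted p = 3.08e-06, limma on log2(value + 0.5)). IL1A rose 1.67-fold (log2 difference 0.73, 95% interval 0.49 to 0.97, adjusted p = 7.96e-05). For the shCHD4 label the libraries of the 2 O2 levels overlapped for both genes and neither passed the test: the log2 difference was 0.20 for IL1B (95% interval 0.0025 to 0.40, adjusted p = 0.132) and 0.15 for IL1A (95% interval −0.093 to 0.39, adjusted p = 0.372). Without the first shCHD4-labelled library at 20% O2 both passed, IL1B at 0.39 (adjusted p = 0.00316) and IL1A at 0.36 (adjusted p = 0.0311). Without the second, IL1B gave 0.0053 (adjusted p = 0.97) and IL1A −0.070 (adjusted p = 0.686). On this scale the added 0.5 is large beside levels near 1, so folds in these libraries are understated. The levels there rested on 72 and 85 reads for IL1A and 88 and 108 for IL1B at 20% and 1% O2. The limma fit took 1 spread per gene over all 4 groups, so these intervals may understate counting error.

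The stretches ahead of the start sites of IL1A, IL1B and IL1RAP are printed because these are the 3 members that rose with 1% O2 in shSC, and were searched for motifs of the factors that interleukin-1 signalling and hypoxia are known to engage. Each is the 250 bases before the first listed start, read 5′ to 3′ on the gene's strand from the RefSeq promoter table of build GRCh38.p14, while the submitters' processing notes name hg19 for the counts. The windows are chr2:112784494-112784743 on the minus strand for IL1A, chr2:112836780-112837029 on the minus strand for IL1B and chr3:190513835-190514084 on the plus strand for IL1RAP. Capitals mark a match on either strand.
IL1A: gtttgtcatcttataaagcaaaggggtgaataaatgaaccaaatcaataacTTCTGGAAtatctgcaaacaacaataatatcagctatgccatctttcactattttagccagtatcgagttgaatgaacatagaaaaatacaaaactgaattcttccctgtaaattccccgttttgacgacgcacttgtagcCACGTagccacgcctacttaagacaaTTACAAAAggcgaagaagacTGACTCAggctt
IL1B: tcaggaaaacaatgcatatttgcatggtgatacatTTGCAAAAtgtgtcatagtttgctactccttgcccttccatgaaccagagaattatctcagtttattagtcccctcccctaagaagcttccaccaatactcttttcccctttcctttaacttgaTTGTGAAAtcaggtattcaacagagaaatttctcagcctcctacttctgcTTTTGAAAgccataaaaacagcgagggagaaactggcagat
IL1RAP: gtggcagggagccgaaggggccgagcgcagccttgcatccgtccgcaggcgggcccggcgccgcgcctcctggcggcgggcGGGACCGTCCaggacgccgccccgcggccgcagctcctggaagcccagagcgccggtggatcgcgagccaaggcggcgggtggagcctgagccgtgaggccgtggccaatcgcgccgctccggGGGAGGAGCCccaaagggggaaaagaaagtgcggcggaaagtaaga
The motifs searched, on both strands, were GGGA and CC with any 4 bases between them for NF-kB, TGANTCA for AP-1, TTNNGNAA for C/EBP and ACGTG for the core of the hypoxia response element. They occurred in 22.6%, 6.57%, 33.2% and 18.5% of the 35116 windows of this length in the table, and a short motif matches by letters alone. IL1A held an AP-1 match 12 bases before the start, C/EBP matches at 199 and 32 and an ACGTG match at 58, the last 2 of these on the other strand. IL1B held 3 C/EBP matches, at 215, 91 and 41, of which the farthest was on the other strand. IL1RAP held 2 NF-kB matches, at 169 and 46. No ACGTG match was found for IL1B or IL1RAP. The first listed window of IL1R1, which did not pass the oxygen test, held an ACGTG match at 111. The windows of IL1RN and IL33 held none. The promoter table matched 6 of the 8 members.

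IL1RN, the gene of the receptor antagonist, gave 0 or 1 read in each library: 1 read in total for shSC at 20% O2, 2 for shSC at 1% O2, and 1 at each O2 level under the shCHD4 label. IL33, which encodes a nuclear alarmin released from damaged cells, gave 0 reads in all 8 libraries. A count of 0 allows up to 3 reads, which is 0.101 to 0.124 normalised counts depending on the library and covers counting error only. Neither gene was detected above that floor, and no fold is given for them.

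IL18, the gene of another cytokine that caspase-1 matures, stood at 12.6 and 13.4 normalised counts in shSC at 20% O2 and at 9.08 and 8.43 in shSC at 1% O2. In the libraries labelled shCHD4 it was at 25.9 and 26.1 at 20% O2 and at 23.3 and 23.5 at 1% O2. It was the 1 tested member with higher levels under the shCHD4 label, 2.0-fold at 20% O2 and 2.67-fold at 1% O2, and the labels did not overlap. With shSC it fell 1.48-fold from 20% to 1% O2 (log2 difference −0.54, 95% interval −0.70 to −0.38, adjusted p = 2.78e-05). Under the shCHD4 label the difference was −0.15 (95% interval −0.31 to 0.013, adjusted p = 0.171), although the libraries of the O2 levels did not overlap. IL18 shares its locus with AP002884.3 on the other strand in GENCODE 29. No source used here names the strand setting, so reads from any exon stretch shared by the 2 genes cannot be told apart. Whether their exons overlap was not examined.

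IL1RAP, the accessory chain shared by the receptors for interleukin-1, interleukin-33 and the interleukin-36 cytokines, was at 47.2 and 56.8 normalised counts in shSC at 20% O2 and at 94.3 and 92.5 in shSC at 1% O2. With the shCHD4 label it was at 12.0 and 11.0 at 20% O2 and at 21.2 and 21.1 at 1% O2. The 4 groups did not overlap, with every shSC library above every library labelled shCHD4 and, within each label, 1% O2 above 20% O2. The label ratio was 4.51-fold at 20% O2 and 4.42-fold at 1% O2, lower under the shCHD4 label. With oxygen lowered IL1RAP rose 1.80-fold in shSC (log2 difference 0.85, 95% interval 0.68 to 1.01, adjusted p = 1.54e-07) and 1.83-fold under the shCHD4 label (0.85, 95% interval 0.69 to 1.01, adjusted p = 2.17e-07). It was the member that passed the oxygen test under both labels. GENCODE 29 places the pseudogene GCNT1P3 and the noncoding genes RN7SKP296 and AC108747.1 on the same strand within IL1RAP.

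IL1R1, the receptor chain that binds interleukin-1, was at 7.78 and 8.21 normalised counts in shSC at 20% O2 and at 6.90 and 6.65 in shSC at 1% O2. In libraries labelled shCHD4 it was at 3.56 and 3.31 at 20% O2 and at 4.36 and 3.36 at 1% O2. The labels did not overlap, and the ratios of means were 2.33-fold and 1.76-fold at 20% and 1% O2, lower under the shCHD4 label. The oxygen difference did not pass with shSC (log2 −0.22, 95% interval −0.48 to 0.032, adjusted p = 0.164) or under the shCHD4 label (0.14, 95% interval −0.11 to 0.39, adjusted p = 0.429). IL1R1 overlaps an antisense gene, IL1R1-AS1.

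CASP1 was at 6.0 and 6.35 normalised counts in shSC at 20% O2 and at 4.04 and 3.73 in shSC at 1% O2. With shCHD4 as the label it was at 0.674 and 0.483 at 20% O2 and at 0.412 and 0.389 at 1% O2, on 32 and 23 reads summed over 2 libraries. Every library labelled shCHD4 lay below every shSC library, and the ratios of means were 10.7-fold at 20% O2 and 9.70-fold at 1% O2. With shSC it fell 1.59-fold from 20% to 1% O2 (log2 difference −0.61, 95% interval −0.92 to −0.29, adjusted p = 0.00454). Under the shCHD4 label the difference of −0.25 had a 95% interval of −0.57 to 0.063 and did not pass (adjusted p = 0.237). That interval may understate counting error at so few reads, as limma took 1 spread per gene over all 4 groups. CASP1 met the testing level through its shSC libraries, as its means under the shCHD4 label were below it. CASP1 shares sequence with CARD16 and CARD17, so its reads may have been split: CARD16 was at 2.23 and 2.19 normalised counts in shSC at 20% O2 and at 1.12 and 0.759 in the matching shCHD4-labelled libraries, and CARD17 was at 0 in every library.

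Counted together, 3 of the 6 tested members rose with 1% O2 in shSC (IL1A, IL1B and IL1RAP), 2 fell (IL18 and CASP1) and IL1R1 did not pass, beside 35.2% of all tested genes past the threshold, 17.4% higher and 17.9% lower. In the libraries labelled shCHD4 1 member rose and 5 did not pass, beside 23% of tested genes past the threshold, 12.3% higher and 10.7% lower. The 5 include CASP1, whose means there were under 1. The libraries of the 2 O2 levels did not overlap for 6 of 6 members in shSC and for 3 of 6 under the shCHD4 label, where 65.5% and 65.7% of tested genes did not overlap. The calls made for shSC held in all 14 alternative settings, with an adjusted p of at most 0.0382, reached by CASP1. Between labels the libraries did not overlap for 6 of 6 members at either O2 level, where 86.4% of tested genes did not overlap at 20% O2 and 88.8% at 1% O2. At 20% O2, 5 of 6 members were at least 2-fold lower under the shCHD4 label on the log2(value + 0.5) scale and 0 at least 2-fold higher, beside 8.07% and 4.93% of tested genes. At 1% O2 4 were at least 2-fold lower, beside 8.56%, and IL18 was at least 2-fold higher, beside 5.67%; these label counts describe genes that had been picked with that contrast in view.

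**Figure D2:**
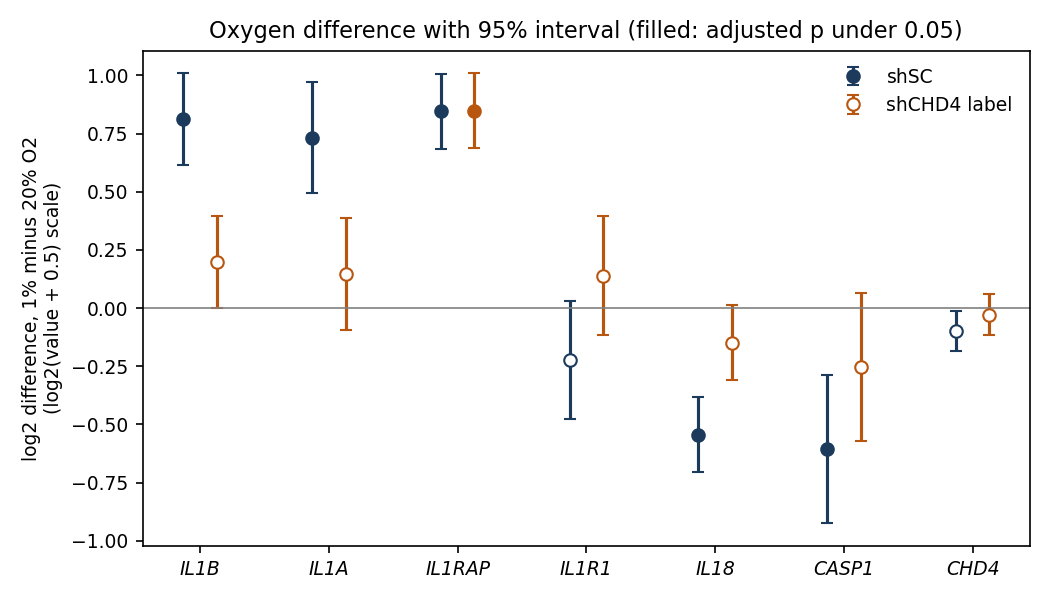
Log2 difference of 1% minus 20% O2 for the 6 tested members and CHD4 with 95% intervals from limma, for shSC and for the shCHD4 label, filled where the adjusted p was under 0.05. The values for IL1RAP are 0.85 under both labels, while those of IL1B are 0.81 with shSC and 0.20 under the shCHD4 label.

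Whether the oxygen difference itself differed between labels was tested as an interaction, the log2 difference under the shCHD4 label minus that with shSC. This term is also the label difference at the lower oxygen level minus that at the higher level. Those label differences were known when the members were picked. The calls, p-values and count of members below are therefore not independent of that choice. The term passed for 3 of 6 members, beside 4.36% of all tested genes, 2.21% higher and 2.14% lower. IL1B gave −0.61 (95% interval −0.89 to −0.33, adjusted p = 0.0117), IL1A −0.59 (95% interval −0.92 to −0.25, adjusted p = 0.0462) and IL18 0.40 (95% interval 0.17 to 0.62, adjusted p = 0.0447). IL1RAP gave 0.0030 (95% interval −0.22 to 0.23, adjusted p = 0.993), while IL1R1 at 0.36 (adjusted p = 0.271) and CASP1 at 0.35 (adjusted p = 0.408) did not pass. For IL1A and IL1B 1 arm of this test rests on levels near 1, and for CASP1 on 0.389 to 0.674. At such levels the added 0.5 pulls the difference under the shCHD4 label toward 0 more than that with shSC. For these genes this makes the interaction term larger in size. The spread shared by all 4 groups may also understate counting error in the low arm, and with it the p-values and interval widths.

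The interaction calls depended on the setting, though the direction for these 3 genes was the same in all 14 alternatives. IL1B passed in 9 of 14, with adjusted p from 0.00011 to 0.15, and failed with edgeR (−0.56, adjusted p = 0.121), with DESeq2 (−0.57, adjusted p = 0.15), with no filter on low values (adjusted p = 0.135), without the first shCHD4-labelled library at 1% O2 (adjusted p = 0.0573) and without the first shSC library at 1% O2 (adjusted p = 0.0732). IL1A passed in 6 of 14, with adjusted p from 0.00185 to 0.435, and failed with edgeR (−0.55, adjusted p = 0.352), with DESeq2 (adjusted p = 0.435) and with no filter (adjusted p = 0.232). Leaving out a library ended its call for the first shCHD4-labelled library at 20% O2 (−0.37, adjusted p = 0.181), the second at 1% O2 (adjusted p = 0.172), the first shSC library at 1% O2 (adjusted p = 0.232) and either shSC library at 20% O2 (adjusted p = 0.0709 and 0.0911). IL18 passed in 3 of 14, with adjusted p from 0.0299 to 0.157. It failed with DESeq2 (adjusted p = 0.152), with no filter (adjusted p = 0.119) and after quantile normalization (adjusted p = 0.0573), and its call was lost without any 1 library other than the first of shSC at 20% O2.

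**Figure D3:**
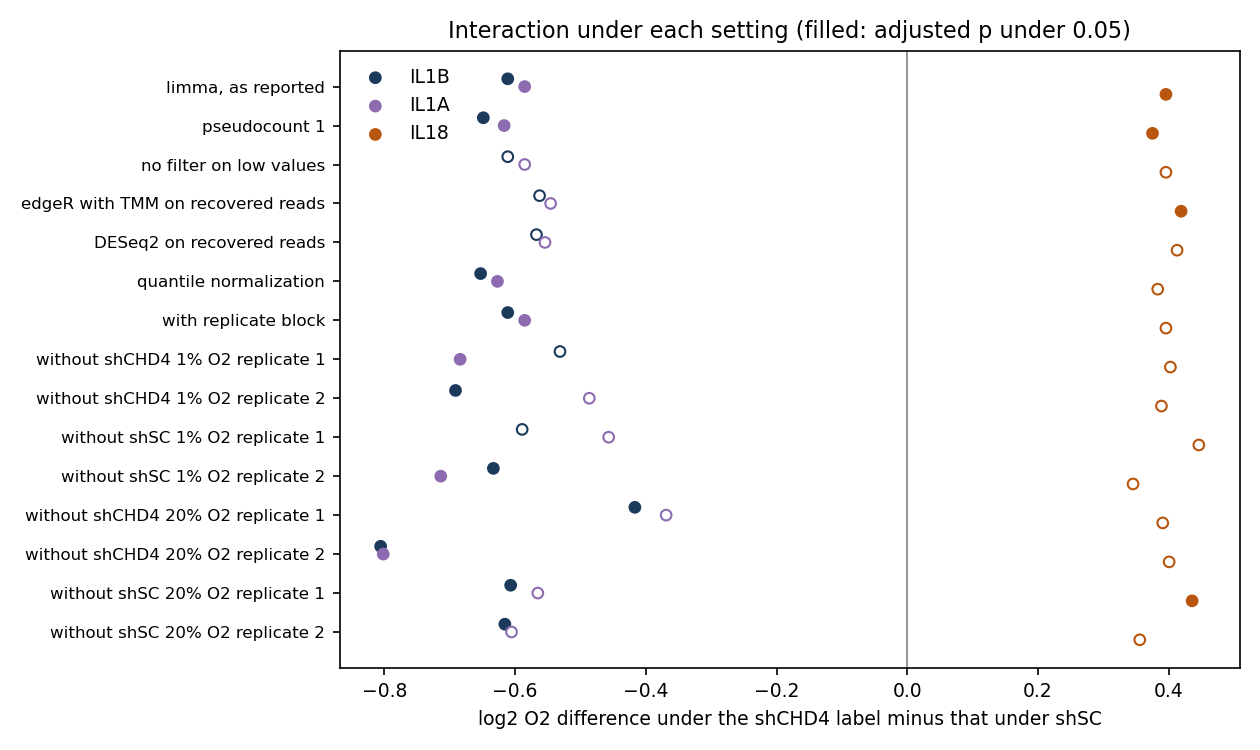
Interaction term (log2 oxygen difference under the shCHD4 label minus that with shSC) of IL1B, IL1A and IL18 as reported and in 14 alternative settings, filled where the adjusted p was under 0.05. The genes were picked with the label differences that make up this term known, so the calls are not independent of that choice. The direction stays the same for each gene, and the fill shows IL1B past the threshold in 9 alternatives, IL1A in 6 and IL18 in 3.

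Levels of different members can be compared only per length. Per kilobase of annotated exon (GENCODE 29, all exons of a gene merged), shSC at 20% O2 held 89.1 ± 0.388 normalised counts of IL1B and 79.6 ± 1.57 of IL1A, then 4.94 ± 0.202 of IL18, 4.5 ± 0.588 of IL1RAP, 1.67 ± 0.0671 of CASP1 and 1.1 ± 0.0428 of IL1R1 (SD, n = 2). The IL18 and IL1RAP libraries overlapped in that order and the other neighbours did not. Under the shCHD4 label at 20% O2 the order was led by IL18 at 9.89 ± 0.0484, followed by IL1RAP at 0.997 ± 0.0641, IL1A at 0.614 ± 0.179, IL1B at 0.514 ± 0.128, IL1R1 at 0.485 ± 0.0243 and CASP1 at 0.156 ± 0.0365. There IL1A, IL1B and IL1R1 overlapped. With 1% O2 in shSC IL1RAP at 8.08 ± 0.108 lay above IL18 at 3.33 ± 0.174 without overlap, below IL1B at 156.5 ± 3.38 and IL1A at 132.9 ± 16.7. With 1% O2 under the shCHD4 label the order of means was that of 20% O2, led by IL18 at 8.90 ± 0.0610 and IL1RAP at 1.83 ± 0.00721. Merged exon length takes no account of which isoform a cell makes, so the order is approximate.

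Most of the other genes of the family were under the testing level or absent from the table. Of 7 further ligand and decoy genes 6 were in the table and 1 was tested, IL18BP, which encodes the secreted binder of interleukin-18. It was at 1.83 ± 0.359 normalised counts in shSC at 20% O2 and did not pass in any of the 5 comparisons, with log2 differences of −0.16 for oxygen in shSC (adjusted p = 0.544), 0.21 between labels at 20% O2 (adjusted p = 0.328) and, with 1% O2, 0.27 (adjusted p = 0.211). Of 8 further receptor genes 2 were tested. Both lists were chosen with earlier results of these data known, so their label p-values are not independent evidence. SIGIRR, a receptor-like inhibitor of the pathway, went from 1.49 and 1.11 normalised counts to 2.18 and 2.76 with 1% O2 in shSC and from 2.32 and 1.90 to 3.64 and 3.68 under the shCHD4 label. It rose in both (log2 0.72, adjusted p = 0.00163, and 0.68, adjusted p = 0.00472) and was also higher under the shCHD4 label at each O2 level (0.54 with adjusted p = 0.00466 at 20% O2, 0.49 with adjusted p = 0.00805 at 1% O2). These label calls for SIGIRR were lost at 20% O2 without the first shCHD4-labelled library (0.42, adjusted p = 0.0582) or the second shSC library (0.39, adjusted p = 0.0647), and at 1% O2 with DESeq2 (adjusted p = 0.0531) or without the first shSC library (0.35, adjusted p = 0.0985). Its oxygen call under the shCHD4 label was lost without the second library of that label at 20% O2 (adjusted p = 0.0519). IL1RAPL1, a receptor-like protein known from neurons, had means of 6.43 and 6.98 normalised counts in shSC at 20% and 1% O2. Under the shCHD4 label its means were 4.44 and 7.14. It rose with 1% O2 under the shCHD4 label (log2 0.63, adjusted p = 0.000426) and was lower under that label at 20% O2 (−0.49, adjusted p = 0.000477). Below the testing level, IL1RL2, the interleukin-36 receptor, gave 36 and 48 reads over the 2 libraries of each shSC group and 1 and 0 in the groups labelled shCHD4. IL18R1, the interleukin-18 receptor chain, gave 52 and 60 reads against 13 and 10.

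IL-1 signalling genes were represented by 21 tested adaptors, kinases and regulators. This list was chosen with earlier results of these data known, so its label counts and p-values are not independent evidence. Between labels 6 were higher and 12 lower under the shCHD4 label at 20% O2 (median log2 −0.28, against −0.0091 for all tested genes, of which 37% were higher and 38.6% lower). At 1% O2 7 were higher and 11 lower (median −0.43), beside 38.2% and 39.2% of all tested genes; without the second shCHD4-labelled or the first shSC library at 1% O2 4 were higher and 11 lower. IRAK2, a kinase-like adaptor that sustains signalling after the first IRAK, was at 152.7 and 154.6 normalised counts in shSC at 20% O2 and at 11.6 and 10.6 in the libraries labelled shCHD4 (log2 −3.73, adjusted p = 1.08e-18), with −3.99 at 1% O2 (adjusted p = 4.26e-19). PELI1, a ubiquitin ligase that acts on IRAK proteins, was lower by −2.15 and −2.05 at the 2 O2 levels, and TAB2, which links ubiquitin chains to the kinase TAK1, by −0.74 and −0.88. With 1% O2 in shSC 5 rose and 3 fell (median 0.014, against −0.011 for all tested genes; 5 and 1 with DESeq2), beside 17.4% and 17.9% of all tested genes. The 3 with the smallest p were IKBKB, a kinase that releases NF-kB (log2 0.37, adjusted p = 0.000128), TAB2 (0.20, adjusted p = 0.0021) and TAB3 (0.25, adjusted p = 0.00479). Leaving out the first shSC library at 1% O2, 3 rose and 1 fell; leaving out the first or the second at 20% O2, 5 or 4 rose and 1 fell. Low oxygen under the shCHD4 label changed 1 of the 21, beside 23% of all tested genes: IRAK2 fell (−0.38, adjusted p = 0.000874). When the first or the second shSC library at 20% O2 was left out, 1 of the list also rose there. In the fit of all libraries 1 of the 21 passed the interaction, beside 4.36% of all tested genes. It was TOLLIP, an inhibitor of the receptor complex (−0.27, adjusted p = 0.0397). The TOLLIP call was lost in 9 of 14 alternatives (adjusted p from 0.0136 to 0.15): with no filter, with DESeq2, after quantile normalization and without any 1 library other than the second of shSC at 1% O2 or the first of shSC at 20% O2.

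Inflammasome and release genes numbered 16 tested of 23. Earlier results of these data were known when they were listed, so their label counts are not independent evidence. NLRP3, the sensor of the best-studied inflammasome, stood at 24.3 and 25.8 normalised counts in shSC at 20% O2 and at 44.9 and 49.9 in shSC at 1% O2, against 7.33 and 6.45 and then 12.0 and 10.9 under the shCHD4 label. It rose with 1% O2 under both labels (log2 0.91, adjusted p = 2.48e-07, and 0.69, adjusted p = 1.21e-05) and was lower under the shCHD4 label at both O2 levels (−1.79 and −2.0). In shSC 6 of these genes rose with 1% O2 and 1 fell (median 0.063; 6 and 0 with DESeq2), beside 17.4% and 17.9% of all tested genes. Among those that rose were NLRP1, another inflammasome sensor (0.63, adjusted p = 1.29e-06), and CASP4, the caspase that senses intracellular lipopolysaccharide (0.32, adjusted p = 0.000474). In the libraries labelled shCHD4 4 of the 16 rose and 1 fell with 1% O2, beside 12.3% and 10.7% of all tested genes. With no filter, or without the first library of that label at 1% O2, 2 rose and 0 fell, and 2 rose and 1 fell without the second. NLRP1 gave 0.51 there (adjusted p = 3.04e-05), and the gene that fell was NINJ1, which encodes a plasma membrane rupture protein (−0.35, adjusted p = 0.0166). NINJ1 was lost with no filter (adjusted p = 0.0885) and without the first shCHD4-labelled library at 1% O2 (−0.24, adjusted p = 0.207) or at 20% O2 (−0.26, adjusted p = 0.18). Between labels 4 were higher and 11 lower under the shCHD4 label at 20% O2 (median −0.36), and 3 higher and 9 lower at 1% O2 (median −0.40; 5 and 9 after quantile normalization). Of all tested genes 37% were higher and 38.6% lower at 20% O2, and 38.2% and 39.2% at 1% O2. GSDMD, whose cleaved protein forms the pore through which interleukin-1 beta leaves a cell, was lower by −1.26 and −1.25 at 20% and 1% O2, and NLRP1 by −1.03 and −1.15. In the interaction 0 of the 16 passed with limma, beside 4.36% of all tested genes, and 0 passed with edgeR or DESeq2. With limma 0 had an unadjusted p under 0.05, and CAPN2, the most abundant, gave −0.089 (adjusted p = 0.443). Without the first shSC library at 20% O2 1 passed. PYCARD, the adaptor that joins sensors to CASP1, was under the testing level, with 82 and 90 reads summed over the shSC groups and 26 and 20 in those labelled shCHD4.

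Genes known to respond to interleukin-1, 15 tested of 16, were all lower under the shCHD4 label at both O2 levels, with medians of −3.70 and −4.13, beside 38.6% and 39.2% of all tested genes lower. This list holds inflammatory genes whose label difference was known when it was drawn up, so its direction is not independent evidence. CXCL8, a neutrophil chemokine listed in the table as IL8, was at 3536 and 3590 normalised counts in shSC at 20% O2 and at 34.6 and 33.5 in the libraries labelled shCHD4 (log2 −6.69), while the chemokines CXCL2 and CXCL1 gave −6.91 and −7.09. At 1% O2 CXCL8 gave −6.89, CXCL1 −7.39 and the adhesion molecule gene ICAM1 −4.5. With 1% O2 in shSC 4 rose and 6 fell (median −0.12; 2 and 8 after quantile normalization), beside 17.4% and 17.9% of all tested genes; without the first shSC library at 1% O2 2 rose and 3 fell. ICAM1 went from 574.2 and 542.3 to 1034 and 1039 normalised counts (log2 0.89, adjusted p = 3.53e-11), the cytokine gene LIF rose by 0.22 (adjusted p = 0.00182), and IL6 fell from 322.7 and 322.9 to 240.9 and 213.5 (−0.51, adjusted p = 4.89e-05). Under the shCHD4 label 1 rose and 7 fell, beside 12.3% and 10.7% of all tested genes. The prostaglandin synthase gene PTGS2 rose (0.60, adjusted p = 4.56e-06), and CXCL1 (−0.61, adjusted p = 1.15e-05) and CXCL8 (−0.40, adjusted p = 1.73e-05) fell. The interaction passed for ICAM1 (−0.80, adjusted p = 7.52e-07) and IL6 (0.47, adjusted p = 0.0162), beside 4.36% of all tested genes. ICAM1 passed in all 14 alternatives. IL6 passed in 7 (adjusted p from 0.00749 to 0.161) and was lost with no filter, edgeR or DESeq2, and without the first shCHD4-labelled library at 1% O2 (adjusted p = 0.0755), the second at 20% O2 (adjusted p = 0.064), the second shSC library at 1% O2 (adjusted p = 0.0879) or the second at 20% O2 (adjusted p = 0.0504).

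**Figure D4:**
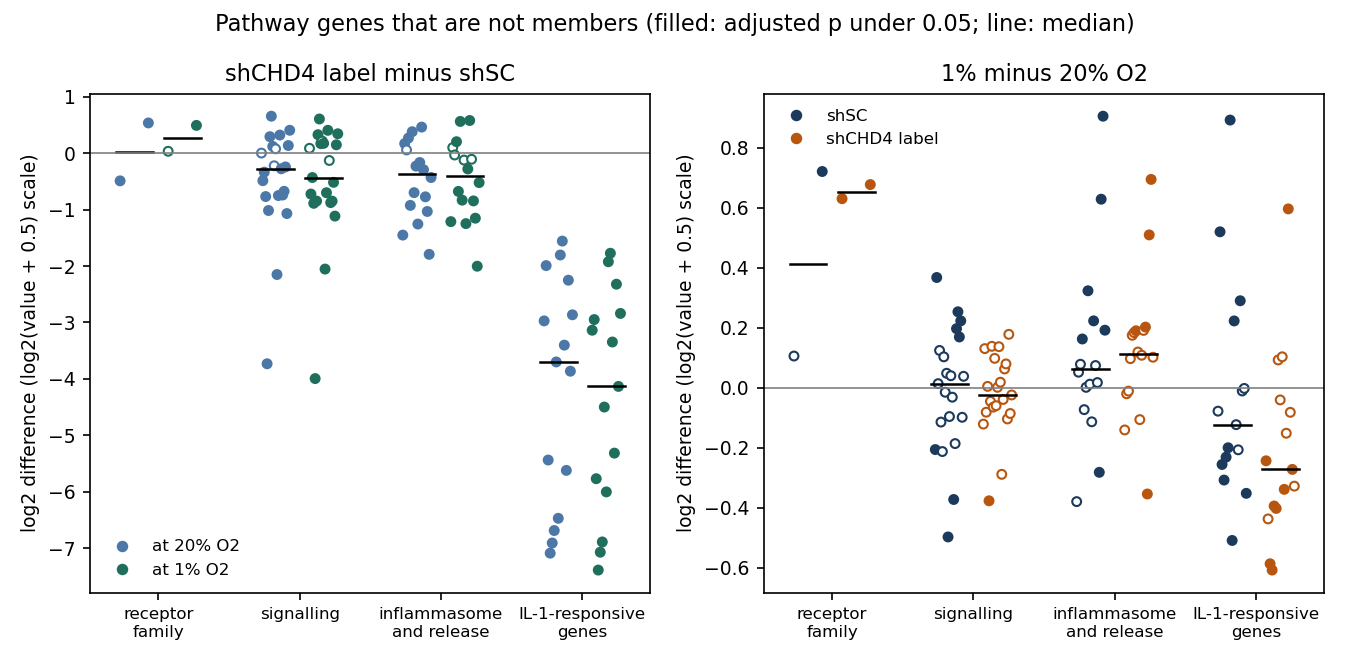
Log2 differences of the tested pathway genes that are not among the 8 members, by list, between labels (left, shCHD4 label minus shSC) and between O2 levels (right, 1% minus 20%), filled where the adjusted p was under 0.05 and with a line at each list's median. In the left panel the interleukin-1-responsive genes lie lowest, with medians of −3.70 and −4.13, and in the right panel the signalling, inflammasome and interleukin-1-responsive lists each hold genes on both sides of 0, while the 2 receptor genes lie above 0.

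The genes whose pattern over the 8 libraries lay nearest each tested member were found by the distance between log2 values centred on their means, a description over libraries that share their groups and depth. Among 12645 genes IL1A and IL1B were each other's nearest, at a distance of 0.775. CXCL8 at 1.15 and CXCL2 at 1.2 came next to IL1A, and CXCL2 at 1.35 and CXCL8 at 1.45 came next to IL1B. The label difference, known when the members were picked, dominates these distances. With 1% O2 in shSC the mean of CXCL8 went from 3563 to 3105 and that of CXCL2 from 240.8 to 205.1, while IL1A and IL1B rose. IL1RAP lay nearest to ASNS, an asparagine synthetase, at 0.351, then NLRP3 at 0.407 and TXNIP at 0.411. IL1R1 lay nearest to IRAK3 at 0.237, FIGNL1 at 0.250 and NPAS2 at 0.267. IL18 lay nearest to NAA16 at 0.223, DNA2 at 0.225 and VWA8 at 0.226, and CASP1 to FAIM3 at 0.340, SGK1 at 0.361 and FST at 0.377.

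IL1A, IL1B, IL1RN and IL1R1 lie in gene clusters on chromosome 2, the first 3 among the family's ligand genes and the last among its receptor genes; IL1RAP is on chromosome 3, IL33 on 9, and IL18 and CASP1 on 11. Genes on either side were chosen by position after the values had been seen. In the ligand cluster IL1A and IL1B stood at over 100 normalised counts in shSC, whereas IL37, the 3 interleukin-36 agonist genes, IL36RN and IL1RN did not exceed 0.302 in any library. The neighbours on the IL1A side were lower under the shCHD4 label at 20% O2 by −0.54 for CKAP2L (adjusted p = 3.26e-09) and −0.46 for SLC20A1 (adjusted p = 5.36e-09), and CHCHD5 did not pass (0.033, adjusted p = 0.827). On the IL1RN side PSD4 was lower by −0.55 (adjusted p = 0.000406) and PAX8 did not pass (0.13, adjusted p = 0.129). Beside these the values of IL1A and IL1B between labels at 20% O2 were −6.57 and −7.06. In the receptor cluster, where IL1R1 gave −1.11, its neighbour MAP4K4, a kinase gene outside the family, was lower by −0.84 (adjusted p = 1.55e-12) and SLC67A2 on the far side gave 0.0060 (adjusted p = 0.961).

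**Figure D5:**
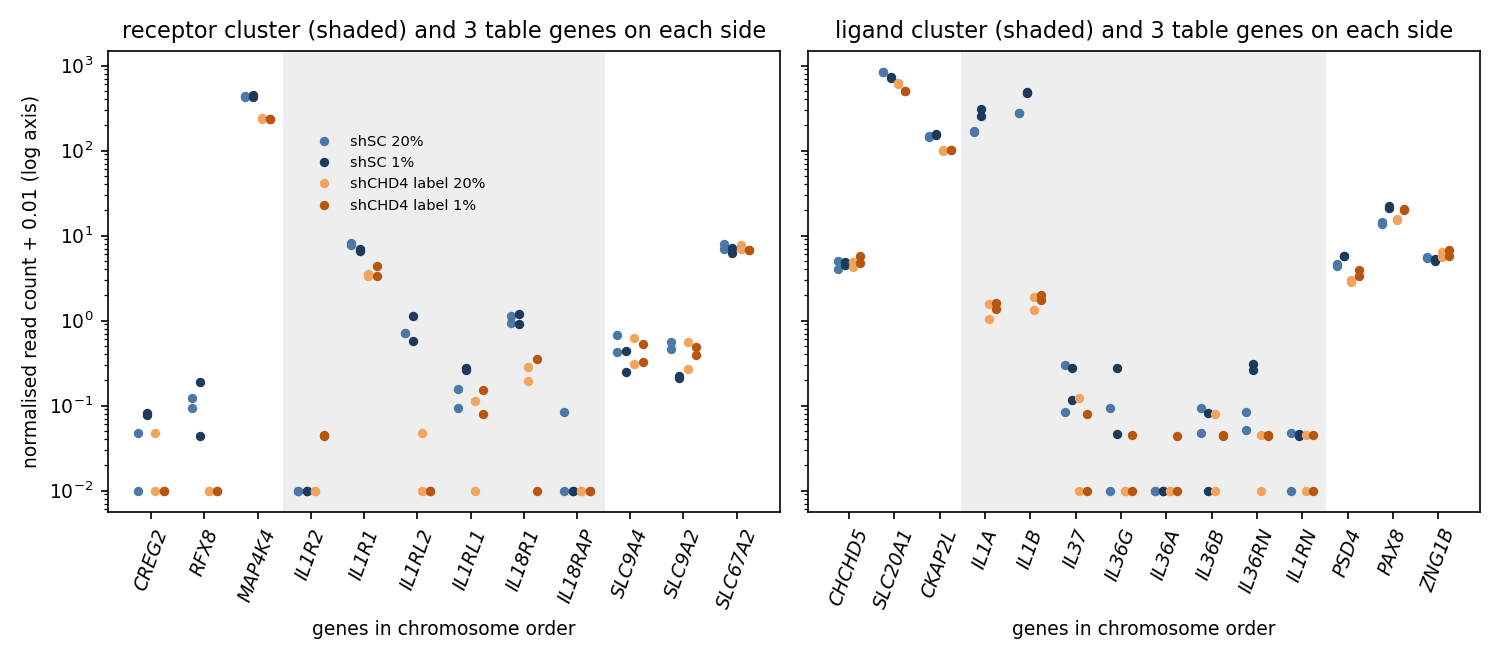
Normalised read counts plus 0.01 (log axis) in each library for the genes of the receptor and ligand clusters of chromosome 2 (shaded) and the 3 genes of the table on each side, in chromosome order. In the ligand cluster IL1A and IL1B separate the labels by more than 100-fold in means, and their neighbours CKAP2L and SLC20A1 differ by 0.54 and 0.46 on the log2 scale.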

How the data were processed

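Polyadenylated RNA of 8 libraries was sequenced; the human build hg19 and the tools TopHat, featureCounts, edgeR, Picard 1.127, FastQC 0.11.2 and bcl2fastq 2.17 come from the submitters' processing notes. The annotation and strand setting were not given in the sources used here. What the authors deposited is a table named FPKM, but its values are a signal: reads that the authors divided by 1 factor per library, with no division by length. In each library 100% of the values were whole multiples of a step within 0.01 reads, so reads were recovered. The choice of test had assumed FPKM and was kept.

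Genes with a mean of at least 1 (12645 of 19583) entered a two-sided limma fit (limma 3.58.1, R 4.3.3) of log2(value + 0.5) on the 4 groups, with trended variance (degrees of freedom 4 residual, 13.9 prior) and Benjamini-Hochberg adjustment over all tested genes at 0.05. The 5 comparisons, which share libraries, were O2 levels within each label, labels within each O2 level, and the interaction. Alternatives were edgeR 4.0.16 and DESeq2 1.42.0 on recovered reads, a pseudocount of 1, no filter, quantile normalization, a replicate block and leaving out each library. On recovered reads edgeR called 4490 and 2959 genes for O2 in shSC and under the shCHD4 label, 563 for the interaction, and 9570 and 9861 between labels at 20% and 1% O2, against 4456, 2903, 551, 9559 and 9782 with limma. The limma step was tested on simulated data for oxygen in shSC. It called 96 of 100 genes changed 2-fold, 92 of 100 changed 1.41-fold and 16 of 12445 unchanged genes. The simulation held no label difference, so it did not test the comparisons under the shCHD4 label or the interaction.

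The members and the pathway and marker lists were chosen with earlier results of these data known. Named genes are the 8 members, CHD4, up to 3 genes with the smallest p in each list and comparison (the most abundant gene where none passed), and the 3 nearest genes of each tested member; other named genes (SIGIRR and IL1RAPL1 aside) were chosen for their role or position after their values were seen. Of 75 list genes 74 were in the table.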

Additional observations from a re-analysis of the deposited data

Results flagged for a closer look

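The oxygen difference of 3 members differed between the hairpin labels by the interaction term of the limma fit. It was -0.59 for IL1A, -0.61 for IL1B and 0.40 for IL18, on the log2(value + 0.5) scale, as the difference under the shCHD4 label minus that with shSC. IL1A and IL1B rose with 1% O2 in shSC, and IL18 fell there, and none of the 3 passed under the shCHD4 label. The calls' dependence on single libraries is given with the results. The term is made of label differences known when the members were picked, so these calls are not independent of that choice.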

How the results depend on the processing

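Over all tested genes, the count changed by O2 under the shCHD4 label went from 2903 to 1920 with no filter on low values and ranged from 1326 to 3468 when 1 library was left out, with 1326, 1451 and 1344 without shCHD4-labelled replicate 1 or 2 at 1% O2 or replicate 1 at 20% O2; the count with an interaction went from 551 to 155 with no filter and ranged from 245 to 994, with the highest without shSC replicate 1 at 20% O2 and 245 to 360 without shSC replicate 1 at 1% O2 or any shCHD4-labelled library. Among pathway genes, those changed by O2 in shSC numbered 26 and ranged from 16 (without shSC replicate 1 at 1% O2) to 27 without 1 library, and interactions numbered 3, against 1 with no filter, 1 with DESeq2 and 1 to 5 without 1 library (1 without shCHD4-labelled replicate 1 at 1% O2, 5 without shSC replicate 1 at 20% O2). The sign turned for IL1RAP in the interaction (-0.017 with a pseudocount of 1, and -0.13 to 0.14 without 1 library), for IL1A under O2 with the shCHD4 label (-0.070 to 0.36, the lower without shCHD4-labelled replicate 2 at 20% O2) and for IL1R1 there (-0.027 to 0.31, the lower without shCHD4-labelled replicate 1 at 1% O2); the cause was not tested. Deviations of same-numbered replicates correlated from -0.12 to 0.12 between groups. With 2 libraries a group this cannot show whether they shared a batch or culture. With the replicate block the 5 comparisons called 4370, 2795, 536, 9536 and 9755 genes (4456, 2903, 551, 9559 and 9782 without it). IL18 in the interaction then had an adjusted p of 0.0558. Pairing the shCHD4-labelled libraries crosswise, added after the data were seen, called 2823 for O2. DESeq2 gave no adjusted p for CASP1 in the interaction. Each group had 2 libraries, and IL1A, IL1B and CASP1 rested on 23 to 108 reads a group under the shCHD4 label.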
